A study of Mus musculus with 778 samples.

Results

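Expression of the spindle assembly checkpoint was followed across mouse oocyte growth in 10 genes, Mad1l1, Mad2l1, Bub1, Bub1b, Bub3, Ttk, Cdc20, Zw10, Aurkb and Aurkc, which were picked by name from the 23201 genes of the count table. The table holds 223 single oocytes, those kept after the quality filter of the study, from wild type female ICR mice, with no transgene and no treatment named for any group. Non-growing oocytes (NGO, under 20 µm in diameter, 46 cells) came from mice 3 to 4 days old. The growing oocytes came from mice 3 to 4 weeks old and were sorted by diameter into GO1 (30 to 45 µm, 51 cells), GO2 (50 to 55 µm, 26 cells), GO3 (60 to 65 µm, 44 cells) and fully grown oocytes (FGO, over 70 µm, 56 cells). The cells were spread over 4 libraries, and neither the library nor the mouse of a cell could be read from the table. Each stage was therefore handled as 1 sample, with no p-value, and the step from NGO to any later stage was also a step in the age of the mice, so growth and age cannot be told apart.

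Unique molecular identifiers (UMIs, tags that mark single captured molecules) were summed per stage and given as counts per 1000000 UMIs of that stage (CPM). A CPM is a share of the polyadenylated RNA captured, not an amount per oocyte. The stages held 25198132 UMIs in NGO and 26752883, 24976634, 49822036 and 64311908 in GO1, GO2, GO3 and FGO. Depth was uneven among cells, with a median of 540432 UMIs per NGO oocyte and 110146 per GO1 oocyte, and the 10 deepest cells held 42.6% of the UMIs of NGO and 80.4% of those of GO1. Intervals below are exact 95% intervals that cover counting error only, and those of shares of cells count cells as if independent, so neither kind covers differences between mice or libraries.

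The cells carried the markers of oocytes at every stage. The 8 germ line genes on the list summed to 23188.8 CPM in NGO and 12134.3, 13615.1, 14305.5 and 17416.9 in GO1, GO2, GO3 and FGO, with none at 0. The egg coat gene Zp3 or the growth factor gene Gdf9 led the list in each stage. Granulosa cells surround the oocyte, and 8 of their markers summed to 7.22 CPM in NGO and 28.8, 27.99, 23.1 and 12.5 in GO1, GO2, GO3 and FGO. Their most abundant gene was Fshr in NGO (2.82 CPM), Cyp19a1 in GO1 and GO2 (16.3 and 13.3), Kitl in GO3 (7.11) and Inha in FGO (3.95). Amh, which granulosa cells of growing follicles secrete, was between 0 and 0.112 CPM and the only one at 0 in a stage (GO2), and Foxl2 reached at most 0.233. The 6 stromal markers summed to 7.98 CPM in NGO and 0.449 in GO1, led by Dcn, and 4 blood markers reached at most 0.0748 CPM. These sums were small beside the 963.6 CPM that the 10 checkpoint genes held together in NGO. They were not small beside every single gene. In GO1 the granulosa sum of 28.8 CPM was above Aurkb (20.6 CPM), the lowest of the 10 genes there, and just below Mad1l1 (31.7). The part of other cells in the changes was not tested.

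The checkpoint delays anaphase until every chromosome is attached to the spindle. At kinetochores without microtubules, the kinases TTK and BUB1, together with the MAD1 scaffold, turn MAD2 into a form that binds CDC20, and MAD2, BUBR1 (the product of Bub1b) and BUB3 then hold CDC20 away from the anaphase-promoting complex (APC/C). Oocytes store the messages of these proteins during growth while they are arrested in prophase of meiosis I, long before they build a spindle.

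Together the 10 genes took 963.6 CPM in NGO (951.5 to 975.8), then 1910.6 (1894 to 1927), 1898, 1842 and 1626 in GO1, GO2, GO3 and FGO. The checkpoint's share of the RNA was thus higher in all 4 stages of the older mice than in NGO. Mad2l1, Bub1b and Bub3 gained the most CPM between NGO and GO1, while Mad1l1, Aurkb and, within counting error, Bub1 were lower. A gene was counted as changed when its CPM differed at least 2-fold between stages and reached 10 in the higher one, which all 10 checkpoint genes did in every stage. From NGO to GO1, 3 of the 10 rose (Bub1b, Cdc20 and Mad2l1) and 1 fell (Aurkb). The tally was 2 up and 3 down without the 10 deepest cells of each stage, where 59.2% of all genes tested changed. It was 3 up and 3 down after every cell was thinned to 20000 UMIs, where 57.9% of all genes tested changed. With total counts, 46.3% of all 8527 genes tested changed at this step, 20.6% upward and 25.7% downward. The 4 of 10 members are therefore near the background. The median log2 difference was 0.73 for the 10 genes and -0.15 for all genes tested.

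**Figure D1:**
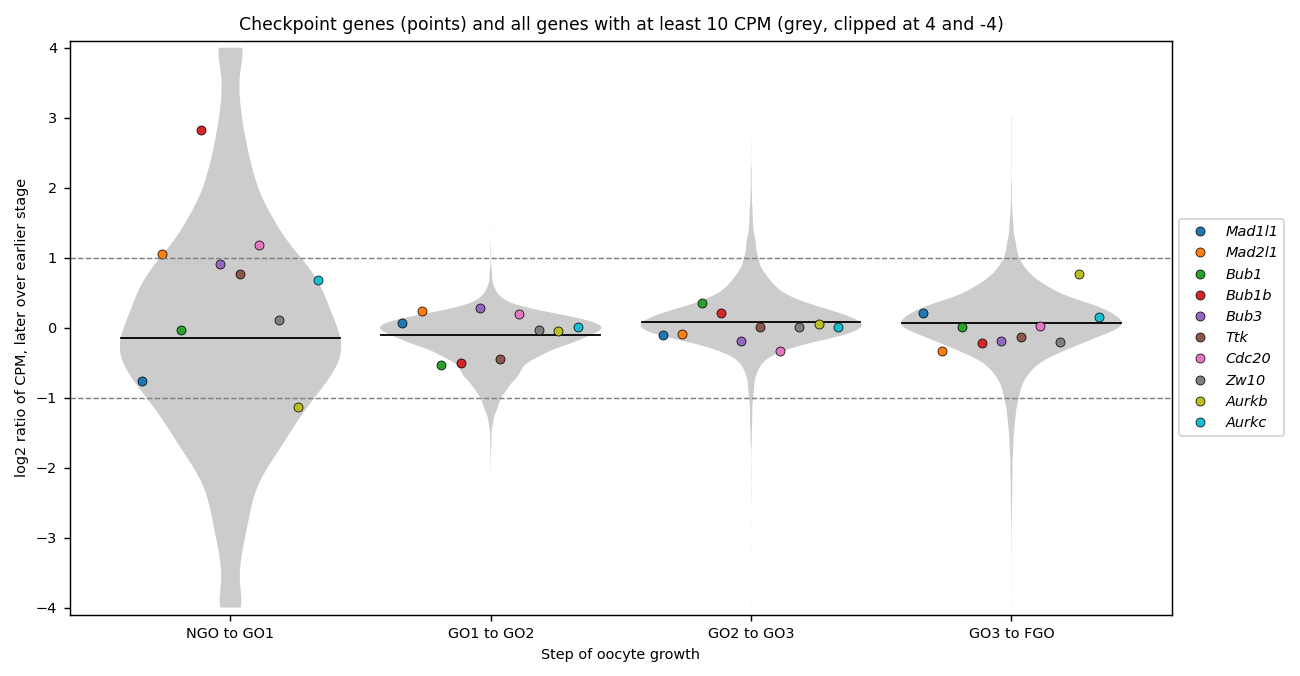
log2 ratio of CPM between consecutive stages for the 10 checkpoint genes (coloured points) and for all genes that reached 10 CPM (grey shapes, black line at the median). The members spread from -1.14 to 2.82 from NGO to GO1 and stay inside the dashed 2-fold limits at the other 3 steps.

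Bub1b, whose product BUBR1 is the subunit that blocks the APC/C, showed the largest change of the 10 genes. It lies on the plus strand of chromosome 2 (chr2:118423947-118467328, mm9). Its level was 63.2 CPM in NGO and 447, 316, 366 and 315.6 in GO1, GO2, GO3 and FGO. Single NGO oocytes ran from 0 to 118.2 CPM with a median of 49.8, and GO1 oocytes from 48.04 to 1059 with a median of 249.8. The ranges overlapped at their edges, and 45 of the 51 GO1 oocytes lay above the highest NGO oocyte. The gene was 7.08-fold higher in GO1 (6.72 to 7.46), which placed it 361st from the top among 8527 genes. It kept a 4.99-fold excess in FGO over NGO (4.75 to 5.26). Over the stages of the older mice its summed levels stayed within 1.42-fold, and those of GO2 and FGO did not differ beyond counting error. The median FGO cell was lower, at 158.5 CPM against 243.3 in GO2 and 282.6 in GO3. Under the 7 ways of summing or scaling, GO1 was up to 1.56-fold above FGO.

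Bub1 encodes the related kinase that marks the kinetochore, and it was level between NGO and GO1. It is also on chromosome 2 (chr2:127626858-127657601, minus strand, mm9). Its level was 92.9 CPM in NGO and 90.8, 62.6, 79.9 and 80.3 in GO1, GO2, GO3 and FGO. NGO and GO1 did not differ beyond counting error, with a ratio of NGO over GO1 of 1.02 (0.97 to 1.08), and their cells overlapped (medians 89.1 and 94.6). The GO1 cells were more widely spread, from 0 to 365.9 CPM against 32.7 to 150.5 in NGO, with 6 of 51 above and 1 below every NGO oocyte. The sign of this small difference turned with the scaling, being positive in 5 of 7 ways of summing or scaling the cells. Bub1 was 1.45-fold lower in GO2 than in GO1 (1.36 to 1.55), and it passed the limit at this step after thinning every cell to 20000 UMIs.

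Because both genes were read in the same cells, their balance needed no scaling factor between stages. Bub1b held 40.5% of the UMIs of the pair in NGO (38.94 to 42.03), then 83.1%, 83.5%, 82.1% and 79.7% in GO1, GO2, GO3 and FGO. Bub1 had more UMIs than Bub1b in 40 of 46 NGO oocytes. Bub1b had more in 46 of 51 GO1 oocytes, in all 26 of GO2 and all 44 of GO3, and in 48 of 56 FGO oocytes. The size of the shift depended on the weight of deep cells: the mean of the single-cell shares was 35.9% in NGO, 71.3% in GO1 and 66.9% in FGO, and the ratio of Bub1b to Bub1 UMIs in GO1 was 4.93 in the sum and 2.66 without the 10 deepest cells of each stage. Their coding sequences were identical at 58.01% of 2898 aligned bases, with no identical run over 14 bases. None of the 50-base words of either gene occurred in protein-coding transcripts of another gene, and other transcripts were not searched.

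The promoters of this pair, and that of Cdc20, the other gene that more than doubled from NGO to FGO, were searched for motifs of cell cycle genes. RefSeq promoters, from 250 bases before to 50 after the start, were matched for all of the 10 genes but Aurkb and are shown 5′ to 3′ on the strand of the gene. Capitals mark TTTGAA (the CHR element) and CCAAT on either strand, the reverse complements being TTCAAA and ATTGG.
Bub1b, chr2:118597961-118598260, GRCm38.p6, plus strand: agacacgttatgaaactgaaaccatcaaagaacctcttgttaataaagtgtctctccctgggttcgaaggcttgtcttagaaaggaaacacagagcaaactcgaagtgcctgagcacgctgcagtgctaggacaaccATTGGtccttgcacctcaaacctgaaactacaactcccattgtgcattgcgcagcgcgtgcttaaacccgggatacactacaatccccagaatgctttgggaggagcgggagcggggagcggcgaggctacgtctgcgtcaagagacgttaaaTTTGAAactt
Bub1, chr2:127831810-127832109, GRCm38.p6, minus strand: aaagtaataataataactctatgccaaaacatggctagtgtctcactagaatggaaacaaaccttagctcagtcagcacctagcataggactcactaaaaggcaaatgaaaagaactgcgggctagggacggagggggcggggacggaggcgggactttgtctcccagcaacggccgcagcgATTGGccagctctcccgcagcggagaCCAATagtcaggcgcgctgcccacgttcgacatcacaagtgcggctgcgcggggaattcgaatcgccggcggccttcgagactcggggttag
Cdc20, chr4:118437294-118437593, GRCm38.p6, minus strand: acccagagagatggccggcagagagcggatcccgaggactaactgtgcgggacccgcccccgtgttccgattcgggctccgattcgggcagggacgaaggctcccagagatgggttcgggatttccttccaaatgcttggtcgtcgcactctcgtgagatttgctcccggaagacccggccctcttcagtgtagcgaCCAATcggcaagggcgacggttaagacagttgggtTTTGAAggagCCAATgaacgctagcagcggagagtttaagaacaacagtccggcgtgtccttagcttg
In the Bub1b window the CHR letters begin at base 41 after the start, and a reversed CCAAT box lies upstream of it. The Bub1 window holds a CCAAT box 42 bases and a reversed one 68 bases before the start, and no CHR letters. Cdc20 has CHR letters 18 bases before its start, between CCAAT boxes 53 and 8 bases before it, and no match overlaps another.

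Across the 9 matched genes, TTTGAA occurred in 5 (Bub1b, Bub3, Ttk, Cdc20 and Zw10), against 17.9% of 32851 promoters. CCAAT occurred in 6 (Bub1, Bub1b, Bub3, Ttk, Cdc20 and Aurkc), against 37.4%, and the E2F type motif TTCCCGCC in 1 (Zw10), against 2.19%. These counts and shares are in unlike units. A gene counted if any of its windows held the letters, and Bub3 and Mad1l1 each had an alternative window, while the shares are of single windows. The 5 genes with TTTGAA included the highest NGO to GO1 ratio, Bub1b, and also Zw10, whose direction turned with the weighting of cells. Mad2l1 rose without a match to any of the 3 motifs in its window. A match is a run of letters and not a site of binding.

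Bub3 encodes the propeller protein that carries BUB1 and BUBR1 to kinetochores. It lies at chr7:138703905-138715412 on the plus strand (mm9). Its level was 196.9 CPM in NGO and 369, 448, 391.5 and 342 in GO1, GO2, GO3 and FGO. Its NGO oocytes ran from 51.4 to 303.5 CPM (median 192), and its GO1 oocytes from 37.8 to 705 (median 300.1), so the groups overlapped and 24 of 51 GO1 oocytes were above every NGO oocyte. The GO1 level was 1.87-fold that of NGO, inside the 2-fold limit. It passed the limit when DESeq2 or TMM factors replaced the total count.

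**Figure D2:**
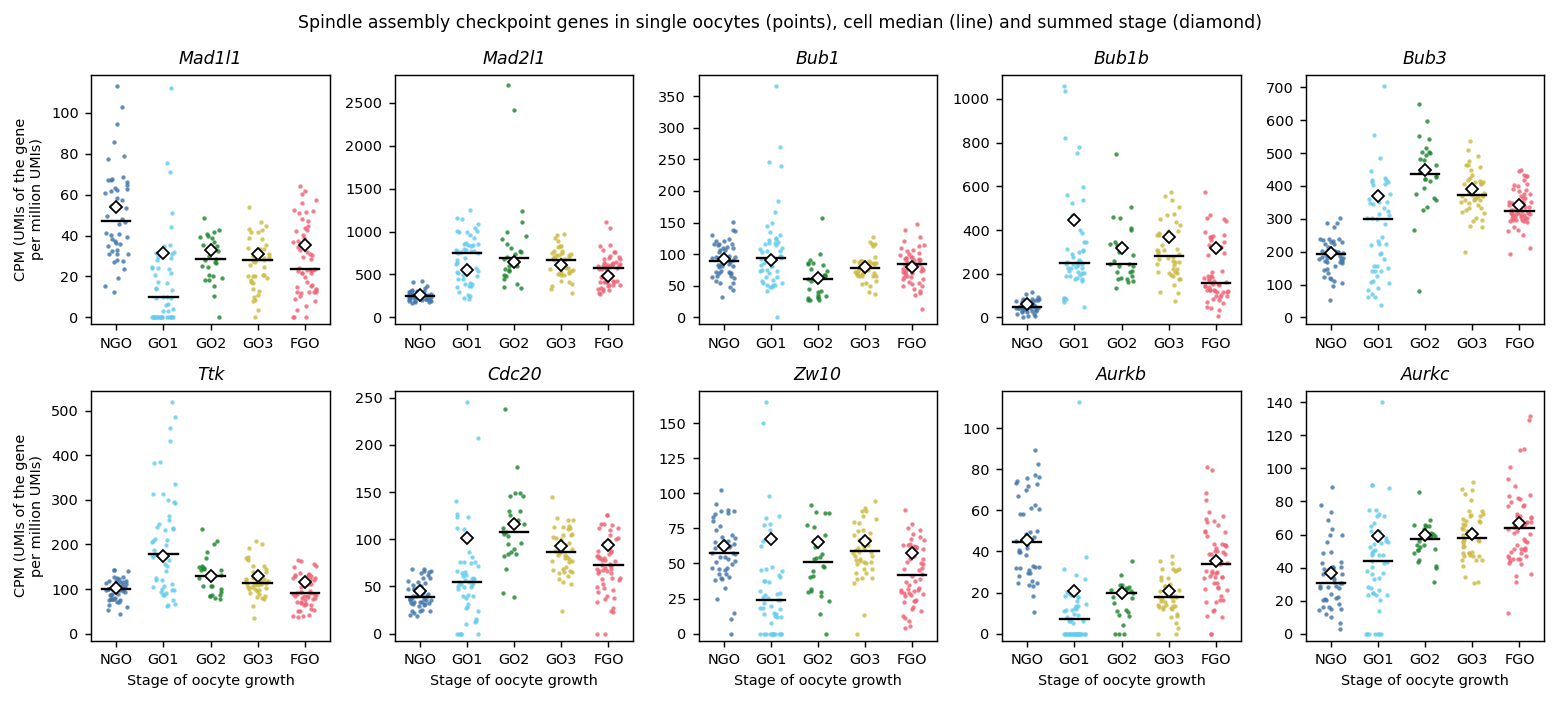
CPM of each checkpoint gene (vertical axes, linear, 1 scale per gene) in every oocyte of the 5 stages (points), with the median over cells (line) and the CPM of the summed stage (diamond). Bub1b, Mad2l1 and Bub3 lie higher in the 4 later stages than in NGO, Mad1l1 and Aurkb lie lower in GO1, and the GO1 diamonds of Cdc20, Zw10 and Mad1l1 stand above their medians of 54.9, 24.02 and 9.95 CPM.

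Mad2l1 encodes MAD2, which binds and holds CDC20. The gene is short and lies at chr6:66485384-66491027 on the plus strand (mm9). Its level was 265 CPM in NGO and 548, 648, 606.5 and 483 in GO1, GO2, GO3 and FGO. NGO oocytes ran from 168 to 425 CPM (median 247), and GO1 oocytes from 216 to 1251 (median 746). Some cells overlapped, while 40 of 51 GO1 oocytes exceeded the highest NGO oocyte. It was 2.07-fold higher in GO1 than in NGO (2.01 to 2.13), just past the limit, and 2.07- to 3.19-fold over the 7 ways of summing or scaling. In FGO it was 1.82-fold above NGO (1.78 to 1.87), short of the limit.

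Mad1l1 encodes the kinetochore scaffold that recruits MAD2, and it went the other way. It spans chr5:140484643-140797506 on the minus strand (mm9). Its level was 53.7 CPM in NGO and 31.7, 33.1, 30.7 and 35.4 in GO1, GO2, GO3 and FGO. NGO oocytes ran from 12.4 to 112.97 CPM (median 47.3), and GO1 oocytes from 0 to 112.2 (median 9.95). The GO1 cells were mostly low, with 27 of 51 below the lowest NGO oocyte and 47 of 51 below the NGO median. The summed level was 1.70-fold lower in GO1 (1.55 to 1.85), which missed the limit, and 4.22-fold lower without the 10 deepest cells of each stage, which passed it. Among the later stages FGO was 1.15-fold above GO3 (1.08 to 1.23) and 1.12-fold above GO1 (1.03 to 1.21), while GO1, GO2 and GO3 were not apart beyond counting error when neighbours in their order were compared. Without the 10 deepest cells of each stage GO2 was 2.52-fold above GO1, which passed the limit, and the median cell went from 9.95 to 28.3 CPM. Mad1l1 shares 37 exonic bases with the antisense transcript Gm16121, and whether the counting used strand is not given in the sources used here.

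Within the pair, Mad2l1 held 83.1% of the UMIs in NGO (82.3 to 83.9), then 94.5%, 95.1%, 95.2% and 93.2% in GO1, GO2, GO3 and FGO. Mad2l1 had more UMIs than Mad1l1 in every one of the 223 oocytes. The ratio of Mad2l1 to Mad1l1 UMIs was 4.93 in NGO and 17.3 in GO1. The GO1 ratio rested on the deepest cells, being 66.1 without the 10 deepest cells of each stage (4.91 in NGO) and 42.4 after thinning (6.70 in NGO), where 64 and 17 Mad1l1 UMIs of GO1 remained.

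Cdc20, the APC/C activator that the checkpoint holds back, rose at the same step. It lies at chr4:118105506-118109957 on the minus strand (mm9) and shares 53 exonic bases with Elovl1 on the other strand. Its level was 44.9 CPM in NGO and 101.7, 116.1, 92.4 and 93.7 in GO1, GO2, GO3 and FGO. NGO oocytes ran from 18.4 to 68.2 CPM (median 38.98), and GO1 oocytes from 0 to 245 (median 54.9). The groups overlapped, with 16 of 51 GO1 oocytes above and 9 below all NGO oocytes. Its summed level was 2.26-fold higher in GO1 (2.11 to 2.43) and 2.09-fold higher in FGO than in NGO (1.96 to 2.23). The rise into GO1 leaned on the deepest cells: it was 1.29-fold without the 10 deepest cells of each stage, and the mean over cells went from 42.1 to 62.1 CPM. In GO2, with a lowest cell of 39.3 and a median of 107.7 CPM, the quartile range of its cells lay above that of GO1.

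Ttk encodes MPS1, the kinase at the head of the pathway (chr9:83728296-83765997, plus strand, mm9). Its level was 102.3 CPM in NGO and 174.6, 128.2, 128.5 and 116.6 in GO1, GO2, GO3 and FGO. GO1 stood highest, with cells from 61.1 to 521 CPM (median 179) against 44.04 to 143.4 (median 99.6) in NGO, and 33 of 51 GO1 oocytes were above every NGO oocyte. The ratio was 1.71, within the limit, and GO2 and GO3 did not differ beyond counting error.

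Zw10 belongs to the complex that loads MAD1 and MAD2 onto kinetochores (chr9:48863737-48886877, plus strand, mm9). Its summed level hardly varied, at 62.5 CPM in NGO and 67.3, 65.6, 65.9 and 57.3 in GO1, GO2, GO3 and FGO. The range over the 5 stages was 1.17-fold, smaller than that of all but 1.83% of 8665 genes. The typical GO1 oocyte was lower than this, with a median of 24.02 CPM against 57.7 in NGO, and 41 of 51 GO1 oocytes were below the NGO median. The direction from NGO to GO1 turned with the weighting, being upward in 4 of 7 ways and 2.29-fold downward without the 10 deepest cells of each stage or after thinning every cell to 20000 UMIs.

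The Aurora kinases destabilise faulty attachments, and germ cells express Aurkc beside its paralogue Aurkb. Aurkb lies at chr11:68859149-68865166 and Aurkc at chr7:6948154-6955656, both on the plus strand (mm9). Their coding sequences matched at 75.1% of 944 aligned bases, and the longest identical run is printed in capitals within its flanks, as the longest stretch over which a read could not tell them apart.
Aurkb, bases 566 to 590 of the coding sequence in capitals: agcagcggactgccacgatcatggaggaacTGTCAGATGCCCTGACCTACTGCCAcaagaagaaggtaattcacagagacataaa
Aurkc, bases 485 to 509 of the coding sequence in capitals: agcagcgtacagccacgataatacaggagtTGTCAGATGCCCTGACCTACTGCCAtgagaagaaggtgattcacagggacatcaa
The run is 25 bases long, and none of the 50-base words of either gene occurred in protein-coding transcripts of another gene. Other transcripts were not searched.

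Aurkb had a level of 45.4 CPM in NGO and 20.6, 19.9, 20.6 and 35.2 in GO1, GO2, GO3 and FGO. NGO oocytes ran from 10.3 to 89.6 CPM (median 44.4), and GO1 oocytes from 0 to 112.7 (median 6.94). In GO1, 29 of 51 cells lay below the lowest NGO oocyte and 50 of 51 below the NGO median. The summed level fell 2.20-fold (1.99 to 2.44) from NGO to GO1. With TMM factors the ratio was 1.97-fold, which ended the call, and over the other ways it reached 4.81-fold.

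Aurkb was also the member that moved most at the end of growth. FGO was 1.70-fold above GO3 (1.58 to 1.84), under the limit, and 26 of 56 FGO oocytes exceeded the highest GO3 oocyte. FGO cells ran from 0 to 81.2 CPM (median 34.1), and GO3 cells from 0 to 37.7 (median 17.9). After thinning every cell to 20000 UMIs the ratio was 2.68-fold, which passed the limit, but it rested on 12 Aurkb UMIs in GO3 and 41 in FGO. At that depth 15.7% of all genes tested passed at this step. Over the 7 ways of summing or scaling the ratio ran from 1.36- to 2.68-fold, and the thinned one was the 1 call.

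Aurkc had a level of 36.9 CPM in NGO and 59.4, 60.0, 60.3 and 67.1 in GO1, GO2, GO3 and FGO. NGO oocytes ran from 2.76 to 88.6 CPM (median 30.9), and FGO oocytes from 12.5 to 131.6 (median 63.7). The ranges overlapped, while 55 of 56 FGO oocytes lay above the NGO median and 7 above every NGO oocyte. It was 1.61-fold higher in GO1 than in NGO (1.48 to 1.75) and passed the limit at this step in none of the 7 ways. From NGO to FGO it was 1.82-fold higher and passed with TMM factors, at 2.05-fold. Neighbouring stages from GO1 to GO3 did not differ beyond counting error.

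The balance of the paralogues shifted with these changes. Aurkc held 44.9% of the UMIs of the pair in NGO (42.71 to 47.03), then 74.2% (72.3 to 76.1), 75.1%, 74.5% and 65.6% (64.5 to 66.8) in GO1, GO2, GO3 and FGO. Aurkb had more UMIs in 32 of 46 NGO oocytes and Aurkc in 13. Aurkc had more in 43 of the 45 GO1 oocytes with a UMI of either gene, in all 26 of GO2 and all 44 of GO3, and in 48 of 56 FGO oocytes. These are counts of molecules. Only the 948 coding bases of Aurkc are annotated in the gene set used here, and whether reads beyond them were counted was not tested. The NGO share ran from 39.9% to 55.1% and the GO1 share from 74.2% to 81.99% under 5 ways of summing the cells, 4 of them chosen after seeing the data. The 55.1% came from thinned cells, with only 38 Aurkc and 31 Aurkb UMIs, and the other ways put the NGO share between 39.9% and 44.9%.

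**Figure D3:**
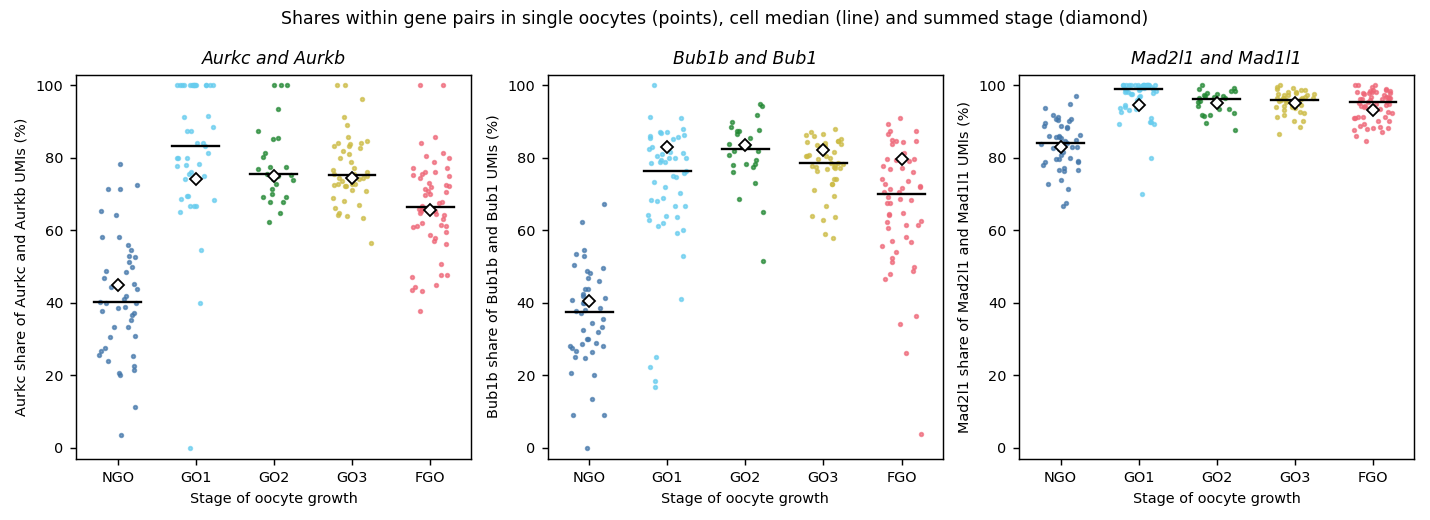
Share of a pair's UMIs held by Aurkc, Bub1b or Mad2l1 (vertical axes, percent) in every oocyte with a UMI of either gene (points), with the median over cells (line) and the share in the summed stage (diamond). The summed share goes from 44.9% to 74.2% for Aurkc, from 40.5% to 83.1% for Bub1b and from 83.1% to 94.5% for Mad2l1 between NGO and GO1.

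After GO1 the summed levels of the checkpoint genes stayed within the 2-fold limit. None of the 10 passed the 2-fold limit from GO1 to GO2, where 3.14% of 7356 genes did, from GO2 to GO3 (4.35% of 7334) or from GO3 to FGO (5.96% of 7622). From GO1 to FGO none passed either, where 7.98% of 7873 genes were higher in FGO and 9.03% lower. From NGO to FGO 2 did, Bub1b and Cdc20, both upward, against 27.3% of 8132 genes in either direction and 11.3% upward. Bub1b passed in all 7 ways of summing or scaling and Cdc20 in 4. Cdc20 was at 1.71-fold with the mean over cells, 1.77-fold without the 10 deepest cells of each stage and 1.80-fold after thinning. Mad2l1 passed under the first and second of these, and Bub3 after thinning. With TMM factors Mad2l1 and Aurkc passed beside Bub1b and Cdc20. Within the 4 stages of the older mice the ranges of the 10 genes with total counts lay between 1.13-fold (Aurkc) and 1.77-fold (Aurkb), and the median over all genes was 1.56-fold. Under the other ways the GO1 to FGO ratio reached 3.44-fold for Aurkb and 2.34-fold for Mad1l1. Their median log2 difference from GO1 to FGO was -0.15, beside 0.02 for all genes tested. Of the 10 genes, 7 were lower in FGO than in GO1, led by Ttk at 1.498-fold, and 3 were higher. The direction turned for 4 of them, with Bub3, Cdc20 and Zw10 higher in FGO in 3 of the 7 ways (Zw10 by up to 1.88-fold) and Mad1l1 higher in 6. Aurkb passed the limit upward in 3 ways, Mad1l1 upward in 1 and Ttk downward in 2. These calls came with the mean over cells, without the 10 deepest cells of each stage and after thinning. From GO1 to FGO 32.6%, 35.4% and 36.9% of all genes tested passed in these ways, against 2 of the 10 members in each.

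**Figure D4:**
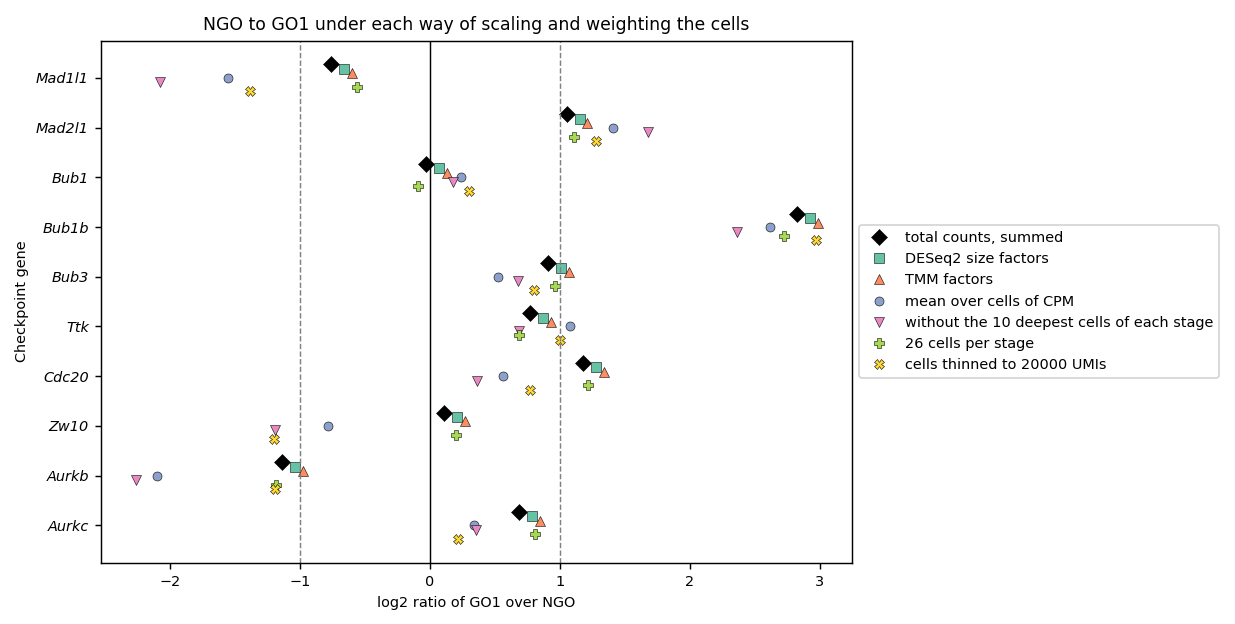
log2 ratio of GO1 over NGO (horizontal axis, dashed lines at 2-fold) for each checkpoint gene under 7 ways of scaling or weighting the cells (symbols). Bub1b and Mad2l1 lie past the upper limit under all 7, Aurkb lies past the lower one under 6, and the symbols of Bub1 and Zw10 fall on both sides of 0.

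Several NGO to GO1 calls depended on how cells were weighted. Bub1b (5.13- to 7.91-fold) and Mad2l1 passed the limit in all 7 ways, Aurkb in 6, Cdc20 in 4, Mad1l1 in 3, Bub3, Ttk and Zw10 in 2 each, and Bub1 and Aurkc in none. The tally of members higher and lower in GO1 was 3 and 1 with total counts or 26 cells per stage. It was 4 and 1 with DESeq2 factors, 4 and 0 with TMM and 3 and 2 with the mean over cells. Without the 10 deepest cells it was 2 and 3, and after thinning 3 and 3. The share of all genes past the limit was 46.3% with DESeq2 factors, 46.1% with TMM and 45.8% with 26 cells per stage. It was 56.6% with the mean over cells, 59.2% without the 10 deepest cells and 57.9% after thinning. TMM moved the median of all genes from -0.15 to 0.01 on the log2 scale.

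Among the cells of a stage, pairs of members correlated in both directions. Spearman correlations of CPM over the 45 gene pairs had medians of 0.10 over the 46 NGO cells, 0.16 over 51 GO1 cells, 0.11 over 26 GO2 cells, 0.15 over 44 GO3 cells and 0.19 over 56 FGO cells. The cells of a stage may share libraries and differ in depth, and these values are given as a description. Mad1l1 and Mad2l1 formed the lowest pair in GO2 (-0.79), GO3 (-0.71) and FGO (-0.60), so cells with more of the one tended to have less of the other. The highest pair was Bub1b and Zw10 in FGO (0.78).

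The depth of a cell moved with these levels. In GO1 the correlation of CPM with total UMIs was 0.64 for Aurkb, 0.51 for Bub3 and -0.44 for Ttk, beside a median of 0.28 over 7283 genes, with 97.05% of genes below Aurkb and 2.35% below Ttk. In FGO the correlation of CPM with total UMIs was 0.78 for Cdc20, 0.74 for Zw10 and 0.71 for Bub1b, against -0.44 for Mad2l1. The median over 7274 genes was 0.27, and 99.4% of genes lay below Cdc20 and 6.92% below Mad2l1. In GO2 the correlation was 0.82 for Zw10, 0.59 for Mad1l1 and -0.52 for Mad2l1. Bub1b stood at 0.54 in NGO and 0.65 in GO3, above 99.4% of genes in each of these stages, and at 0.27 in GO1, above 48.4%. The part of depth in the correlation of the MAD pair was not tested.

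Detection followed level and depth. Mad2l1, Bub3 and Ttk had a UMI in all 223 oocytes. Fewest cells showed Aurkb in GO1, with a UMI in 30 of 51 (58.8%, 44.2 to 72.4), followed by Mad1l1 in GO1 (33 of 51, 64.7%, 50.1 to 77.6), and both genes were seen in all 46 NGO oocytes, which were sequenced deeper. After thinning every cell to 20000 UMIs, Aurkb was seen in 47.8% of NGO (32.9 to 63.1) and 23.5% of GO1 oocytes (12.8 to 37.5), and Mad1l1 in 63.04% (47.5 to 76.8) and 25.5% (14.3 to 39.6). At that depth Bub1b was seen in 58.7% of NGO oocytes (43.2 to 73.002) and in all 51 GO1 oocytes (lower bound 93.02%). Blood markers, which oocytes should lack, had at most 2 UMIs for their leading gene in any stage.

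The partners of the checkpoint proteins were followed through a list of 11 genes, of which 10 reached 10 CPM in NGO or GO1. From NGO to GO1, 3 rose and 1 fell, which is near the 46.3% of all genes that changed. Those that rose were Spdl1, whose product recruits dynein to kinetochores (51.9 to 174.6 CPM, 3.36-fold), Kntc1, a partner of ZW10 (6.51 to 17.1, 2.63-fold), and Haspin, the histone kinase that places the Aurora complex (46.04 to 104.6, 2.27-fold). Haspin did not pass the limit with the mean over cells, without the 10 deepest cells of each stage or after thinning, nor Kntc1 with 26 cells per stage. The AAA ATPase Trip13, which takes MAD2 out of the checkpoint complex, fell 2.70-fold (22.98 to 8.52 CPM). Incenp, the scaffold that binds AURKB and AURKC, was 1.88-fold lower at 72.03 against 135.1 CPM, and Zwilch, the other partner of ZW10, was 1.61-fold lower. Zwilch passed the limit downward with the mean over cells, without the deepest cells and after thinning. Incenp did so under the last pair of these and Plk1 without the deepest cells. Without the deepest cells 2 partners were higher and 4 lower, beside 59.2% of all genes tested that changed. Kntc1 then fell 2.12-fold from GO1 to GO2 (17.1 to 8.09 CPM), the one change of the list between consecutive stages after GO1 with total counts. That fall did not pass with DESeq2 factors, TMM factors or 26 cells per stage. Plk1 passed upward from GO1 to GO2 with the mean over cells, without the deepest cells and after thinning, and Mad2l1bp only after thinning. Birc5, which encodes survivin, was the most abundant partner, at 1187 CPM in NGO and 1758 in GO1.

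Of 13 kinetochore genes, 2 rose and 1 fell from NGO to GO1, beside 46.3% of all genes changed. Cenpe, a motor that links kinetochores to microtubules, went from 142.7 to 359.6 CPM (2.52-fold), and Cenpa, the centromeric histone, from 66.8 to 149.6 (2.24-fold). Cenpf was 1.53-fold higher. Nsl1, of the MIS12 complex, fell 3.75-fold from 23.6 to 6.28 CPM, while Pmf1 of the same complex was 1.66-fold and Cenpc1 1.39-fold lower. With the mean over cells, without the deepest cells or after thinning, Pmf1 and Mis12 passed the limit downward as well. The median log2 difference of the list was -0.13, near the -0.15 of all genes.

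Of the APC/C and its targets, 6 rose and 6 fell among 21 genes tested of 22, beside 20.6% of all genes upward and 25.7% downward. The rising side was led by 2 substrates, Pttg1 (securin, 1428 to 6345 CPM, 4.44-fold) and Ccnb1 (cyclin B1, 459 to 1374 CPM, 2.99-fold), with the subunit Anapc1 (7.98 to 20.6, 2.59-fold). The APC/C inhibitors Fbxo43 and Fbxo5 and the ubiquitin-chain enzyme Ube2s also rose. The falling side was led by the E2 enzyme Ube2c (1037 to 269.9 CPM, 3.84-fold), Anapc5 (395.6 to 130.5, 3.03-fold) and Fzr1, the co-activator that stands beside Cdc20 (353 to 119.1, 2.97-fold). The subunits Anapc2, Anapc11 and Anapc13 fell as well. Ube2c rose again by 2.22-fold from GO3 to FGO (291.8 to 649 CPM). The count of 6 and 6 became 8 and 5 with DESeq2 or TMM factors, beside 46.3% and 46.1% of all genes changed. It was 5 and 7 with the mean over cells (56.6% of all genes) and 4 and 6 without the 10 deepest cells of each stage (59.2%). Pttg1, Fbxo5, Ube2c, Anapc5, Fzr1, Anapc2 and Anapc11 passed in all 7 ways. Ccnb1 and Ube2s did not pass with the mean over cells, without the deepest cells or after thinning, Fbxo43 without the deepest cells, or Anapc1 with 26 cells per stage. Anapc13 passed with total counts and with 26 cells per stage alone. Anapc10, at 1.90-fold higher with total counts (50.1 to 95.4 CPM), passed in the other 6 ways, and it was 2.10-fold higher in FGO than in NGO. Anapc7, at 143.6 and 102.3 CPM, passed downward with the mean over cells, without the deepest cells and after thinning. Cdc26 passed upward with DESeq2 factors, with TMM factors and after thinning, and Cdc16 downward with the mean over cells.

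**Figure D5:**
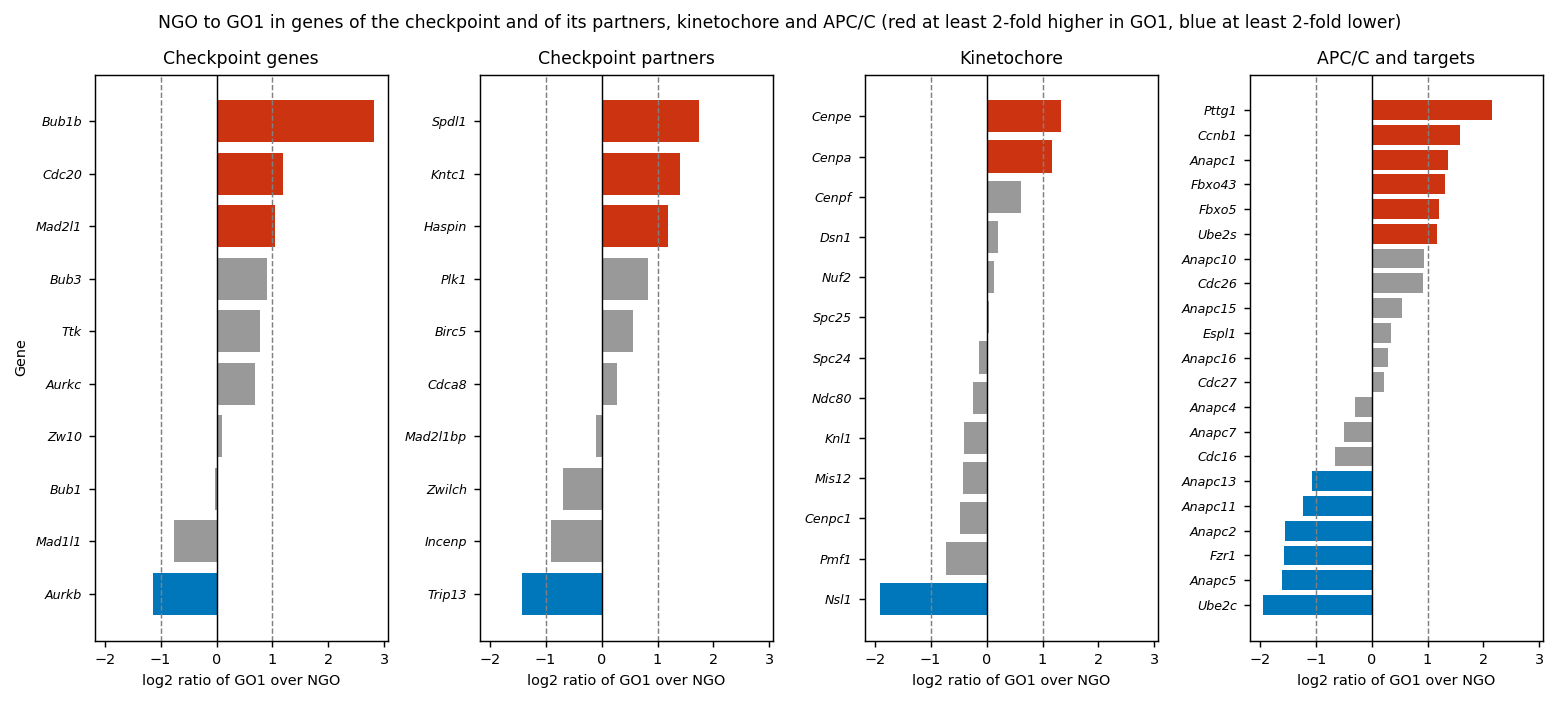
log2 ratio of GO1 over NGO for the 10 checkpoint genes and for the tested genes of their partners, the kinetochore and the APC/C with its targets (bars from 0, dashed lines at 2-fold, red at least 2-fold higher and blue at least 2-fold lower in GO1). Bub1b at 2.82 is the highest bar of the 4 panels, and Ube2c and Nsl1 are the lowest.

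The genes whose course over the 5 stages was most like that of Bub1b, by the root mean square difference of mean-centred log2(CPM) among 8671 genes, were Nlrp4e (0.03), Gm13084 (0.09) and Grhl2 (0.12). Nlrp4e went from 10.4 CPM in NGO to 75.7 in GO1 and 54.9 in FGO, and it belongs to a multigene family whose reads may be split between copies. The nearest to Cdc20 were Brix1 (0.04), Lin37 (0.05) and Kif20b (0.06), with Brix1 at 349.9 CPM in NGO and 792 in GO1.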

How the data were processed

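The 10 members and the gene lists were chosen with earlier results of these data known. The authors deposited raw counts, 1 UMI count per gene and oocyte, for 223 retained oocytes in 4 polyadenylated RNA libraries. Per the study's methods they split reads by cell barcode, aligned them with Tophat to mm9, merged reads with the same UMI, and kept cells by genes, transcripts and spike-ins. The deposited counts were summed per stage and divided by the stage total (CPM). The 223 cell names were distinct, 0 pairs of cells had identical counts, oocytes were picked singly and no doublet caller was run. No test was made, since each stage was 1 pooled sample. A change meant at least 2-fold with 10 CPM in the higher stage, and a group listed at 0 would have been set at 3 UMIs. Intervals are exact Poisson or binomial at 95%. The 7 ways of summing or scaling were total counts, DESeq2 1.42.0 size factors, edgeR 4.0.16 TMM factors, the mean over cells, leaving out the 10 deepest cells per stage, 26 cells per stage drawn at random, and cells thinned to 20000 UMIs. All 10 members were described, and genes of like course were named for the 2 with the widest range over stages. Of each other list, the 3 genes with the highest and the 3 with the lowest NGO to GO1 ratio were named, with genes changed after GO1. Birc5, Plk1, Mad2l1bp, Mis12, Fbxo43, Fbxo5, Ube2s, Anapc2, Anapc7, Anapc10, Anapc11, Anapc13, Cdc16 and Cdc26 were named after their values were seen. Gene positions and exons are from the NCBIM37 assembly (mm9) with GENCODE annotation, and promoters are from RefSeq (GRCm38.p6). Protein sequences were not used here. Python 3.11.15, pandas 2.3.3, scipy 1.17.1 and R 4.3.3 were used.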

Additional observations from a re-analysis of the deposited data

How the results depend on the processing

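No paired analysis was possible because the number in a cell name only counts the cells of a stage, so that equal numbers name different oocytes, and each stage was 1 pooled sample. The depth of GO1 rests on few cells, 10 of which held 80.4% of its UMIs. With other ways of summing or scaling, the direction of the NGO to GO1 difference held in all 7 for 8 of the 10 genes and turned for Bub1 and Zw10, and the cause was not tested.

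The count of checkpoint genes past the limit was 8 from NGO to GO1 with a 1.5-fold limit (4 with 2-fold). With the 1.5-fold limit 66.3% of all genes tested passed at this step. From GO1 to GO2 it was 1 without the 10 deepest cells (Mad1l1) and 1 after thinning (Bub1). From GO3 to FGO it was 1 after thinning and 1 with the 1.5-fold limit (Aurkb in both). From NGO to FGO it was 4 with TMM factors, beside 26.7% of all genes tested, and 6 with the 1.5-fold limit. From GO1 to FGO it was 2 with the mean over cells, 2 without the 10 deepest cells, 2 after thinning and 1 with the 1.5-fold limit. The other 43 of the 54 alternative counts stayed within 1.5 times the value reported.

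Of all genes tested, the percentage past the limit from GO1 to GO2 was 1.29 with DESeq2 factors, 1.54 with TMM, 16.5 with the mean over cells, 17.7 without the 10 deepest cells, 0.542 with 26 cells per stage, 24.7 after thinning, 14.7 with the 1.5-fold limit, 0.968 with at least 50 CPM and 23.8 with no minimum (3.14 reported). From GO2 to GO3 it was 7.54 without the 10 deepest cells, 15.8 after thinning, 13.5 with the 1.5-fold limit, 1.84 with at least 50 CPM and 25.4 with no minimum (4.35 reported). From GO3 to FGO it was 9.19 with the mean over cells, 15.7 after thinning, 18.2 with the 1.5-fold limit, 3.38 with at least 50 CPM and 28.5 with no minimum (5.96 reported). From NGO to FGO it was 51.2 with the 1.5-fold limit and 45.6 with no minimum (27.3 reported). From GO1 to FGO it was 32.6 with the mean over cells, 35.4 without the 10 deepest cells, 36.9 after thinning, 36.6 with the 1.5-fold limit, 10.9 with at least 50 CPM and 39.6 with no minimum. Of the calls over all genes, 44.5% were upward from NGO to GO1 with total counts, 53.2% with TMM and 36.5% without the 10 deepest cells, and 3.46% were upward from GO1 to GO2 with total counts, 14.6% with DESeq2 factors, 25.2% with the mean over cells, 35.4% after thinning and 53.4% without the 10 deepest cells. From GO2 to GO3 they were 76.8% and, with DESeq2 factors, 59.2%. From NGO to FGO they were 41.4% and, with TMM, 56.8%, and from GO1 to FGO 46.9% and, without the 10 deepest cells, 63.1%.

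The summed CPM of the 10 genes in NGO was 884 with DESeq2 factors, 851 with TMM, 921 as the mean over cells, 917 without the 10 deepest cells and 909.8 after thinning. In GO1 these were 1879, 1885, 1764, 1776 and 1807, and 1950.2 with 26 cells. In GO2 they were 2136 with DESeq2 factors, 2101 with TMM, 2018 as the mean over cells and 2056 after thinning. In GO3 they were 1869 with DESeq2 factors, 1919 with TMM, 1774 as the mean over cells, 1745 without the 10 deepest cells and 1792 after thinning. In FGO they were 1578 with DESeq2 factors, 1518.5 as the mean over cells, 1518 without the 10 deepest cells, 1681 with 26 cells and 1592 after thinning. NGO was the lowest stage under all 7.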

Other observations

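Of 8 oocyte markers, 4 fell and 1 rose between NGO and GO1, beside 46.3% of all genes changed. The germ line transcription factor gene Figla fell 9.11-fold (597 to 65.5 CPM), the RNA helicase gene Ddx4 5.24-fold (341.7 to 65.2), the egg coat gene Zp2 5.14-fold (4250 to 827) and Zp3 2.66-fold. The growth factor gene Bmp15 rose 6.42-fold, from 128.6 to 825 CPM. The rest were Nobox at 1.39-fold lower, Gdf9 at 1.03-fold lower and Dazl level within counting error (482.9 and 483.1 CPM). Nobox passed the 2-fold limit downward with the mean over cells, without the 10 deepest cells of each stage and after thinning. Ddx4 was then 3.04-fold and Figla 2.60-fold higher in FGO than in GO1, and Ddx4 rose 2.22-fold from GO2 to GO3.

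Genes of dividing cells had UMIs in these arrested oocytes. Of 4 division markers, 2 rose from NGO to GO1, beside 20.6% of all genes: Mki67 (26.5 to 67.8 CPM, 2.56-fold) and Top2a (27.9 to 58.9 CPM, 2.11-fold). Pcna was 1.23-fold higher and Mcm2 1.02-fold lower. With 26 cells per stage neither Mki67 nor Top2a passed the limit, and Top2a also did not without the 10 deepest cells or after thinning. Mcm2 passed the limit downward with the mean over cells, without the 10 deepest cells and after thinning. The granulosa marker Cyp19a1 was 14.7-fold higher in GO1 than in NGO and 10.6-fold lower in FGO than in GO1.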
